A study of Mus musculus with 10 samples.

Results

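The acinar cell is the enzyme factory of the pancreas, and its transcripts were followed here through RNA sequencing libraries of mouse pancreatic islets. The genes were 31 symbols chosen by name for what they encode: digestive enzymes and their cofactors, proteins of the secretory granule, and transcription factors of the acinar cell. Of these, 30 had a row in the deposited table of 17945 named genes, and 26 held normalized counts of 10 or more in 5 or more libraries and were tested among 11711 genes. Prss1, Cela3a, Zg16 and Ptf1a did not reach it and are given by their values. No row carried the symbol Spink1.

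The libraries came from islets of C57BL/6 mice at 18 weeks. In the 5 labelled knockout the animals carried the Pdx1-CreER driver and Grk5 flox/flox alleles, and in the 5 labelled floxed control they carried Grk5 flox/flox alone. Grk5 encodes a kinase of G protein-coupled receptors, and the study asked about its part in β-cell proliferation. CreER is a recombinase fused to an estrogen receptor domain, which tamoxifen activates; the treatment given is not stated in the sources used here. Pdx1 is active in the precursors of all pancreatic cells and, in the adult, mainly in β cells. How far the driver acts in acinar cells was not measured here.

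Normalized totals ran from 5534386 to 7358040 per library and genes above 0 from 10222 to 14632, and the read depth behind them is unknown. Control libraries 2, 3 and 5 had low values spaced unlike those of the other 7. Grk5 itself was 128 to 387 in controls and 94.4 to 270 in knockouts, so the groups overlapped. Esr1, whose sequence a CreER transgene can add to, was 1517 to 3177 in the knockouts and 2495 and 773.5 in controls 2 and 5, against 2.00, 10.5 and 0 in controls 1, 3 and 4. Controls 2 and 5 thus went against their labels on this gene, and fold changes, spreads and correlations are given with and without them. The labels do not tie the libraries to separate animals, and p-values here describe only how these libraries spread. β-cell identity was plain, with Ins1 and Ins2 together at 12.3% to 17.8% of every library.

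Acinar cells store enzyme precursors (zymogens) in granules and release them into the duct on a meal signal. Trypsinogen, once cut to trypsin in the gut, activates the other zymogens. Their genes are switched on by PTF1, a complex of the helix-loop-helix protein PTF1A, a common helix-loop-helix partner and RBPJL, which binds an E box placed beside a second short element. BHLHA15 (MIST1) organises the granules and the secretory apparatus, and is also made in other secretory cells such as plasma cells. Islets lie within acinar tissue and are freed from it by digestion with collagenase and by picking, and islet libraries commonly hold some acinar RNA.

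Stretches upstream of 5 of the genes are shown, those of 3 enzyme genes and of the transcription factor genes Rbpjl and Bhlha15. In each, capitals mark the letters CACCTG or TTTCCC on either strand, and in the first 3 also the paired form, an E box CANNTG with TTTCCC placed 4 bases after it. Positions are counted from the RefSeq transcript start (build GRCm38.p6), and the sequences are RefSeq's, read in the direction of the gene. Cela1 is shown from -130 to -1 (chr15:100687921-100688050, minus strand), Ctrb1 over 130 bases from -230 (chr8:111691111-111691240, minus strand), Prss1 from -120 to -1 (chr6:41458810-41458929, plus strand), Rbpjl from -130 to -1 (chr2:164403064-164403193, plus strand) and Bhlha15 from -220 to -1 (chr5:144190066-144190285, plus strand).
Cela1: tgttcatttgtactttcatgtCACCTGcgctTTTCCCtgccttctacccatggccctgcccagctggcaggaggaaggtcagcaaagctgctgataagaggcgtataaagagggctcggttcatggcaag
Ctrb1: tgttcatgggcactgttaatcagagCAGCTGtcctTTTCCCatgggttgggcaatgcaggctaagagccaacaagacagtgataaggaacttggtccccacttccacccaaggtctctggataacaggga
Prss1: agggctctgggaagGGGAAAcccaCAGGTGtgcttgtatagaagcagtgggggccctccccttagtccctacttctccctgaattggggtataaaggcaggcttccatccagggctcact
Rbpjl: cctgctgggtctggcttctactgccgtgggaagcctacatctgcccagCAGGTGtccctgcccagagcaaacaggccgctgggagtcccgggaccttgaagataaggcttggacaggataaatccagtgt
Bhlha15: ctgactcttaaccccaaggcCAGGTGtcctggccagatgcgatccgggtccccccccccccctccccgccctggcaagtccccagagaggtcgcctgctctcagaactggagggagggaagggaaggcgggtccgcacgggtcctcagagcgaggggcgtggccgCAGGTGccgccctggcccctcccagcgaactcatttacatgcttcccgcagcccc

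In Cela1 and Ctrb1 the E box and TTTCCC stood 4 bases apart on the strand of the gene, from -109 to -94 and from -205 to -190. In Prss1 the same arrangement lay on the opposite strand, from -106 to -91. Of 26 of the genes with a RefSeq promoter, these 3, or 11.5%, held the paired form within the 250 bases before the start, against 0.0925% of 27025 genes, both strands searched. CACCTG alone, which the paired form can include, stood before 16 of the 26 (61.5%) and before 19.4% of all genes. TTTCCC stood before 8 (30.8%) and before 24.4% of all genes. The TATA box TATAAA, searched on the strand of the gene only, stood before 10 (38.5%) and before 8.94% of all genes. Rbpjl and Bhlha15 each held CACCTG on the opposite strand and no paired form. A match of letters is a description and was not tested for binding, nor for a part in how the genes varied between libraries.

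Together the 30 genes made up 0.428% to 4.98% of a library. From control 1 to control 5 the shares read 1.99%, 0.428%, 1.88%, 4.98% and 2.43%. The knockouts held 0.551%, 1.02%, 1.79%, 0.795% and 0.845% in the same order. Control 2 was the poorest in acinar transcripts of all 10 libraries and control 4 the richest, so the controls enclosed every knockout. Of the 26 tested genes, 16 were lowest in control 2 and 23 were highest in control 4. Among the controls alone, control 2 was lowest for 25 of the 26, and for 19.9% of all tested genes. In whole-islet RNA, fewer acinar cells and less RNA per acinar cell cannot be told apart.

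**Figure D1:**
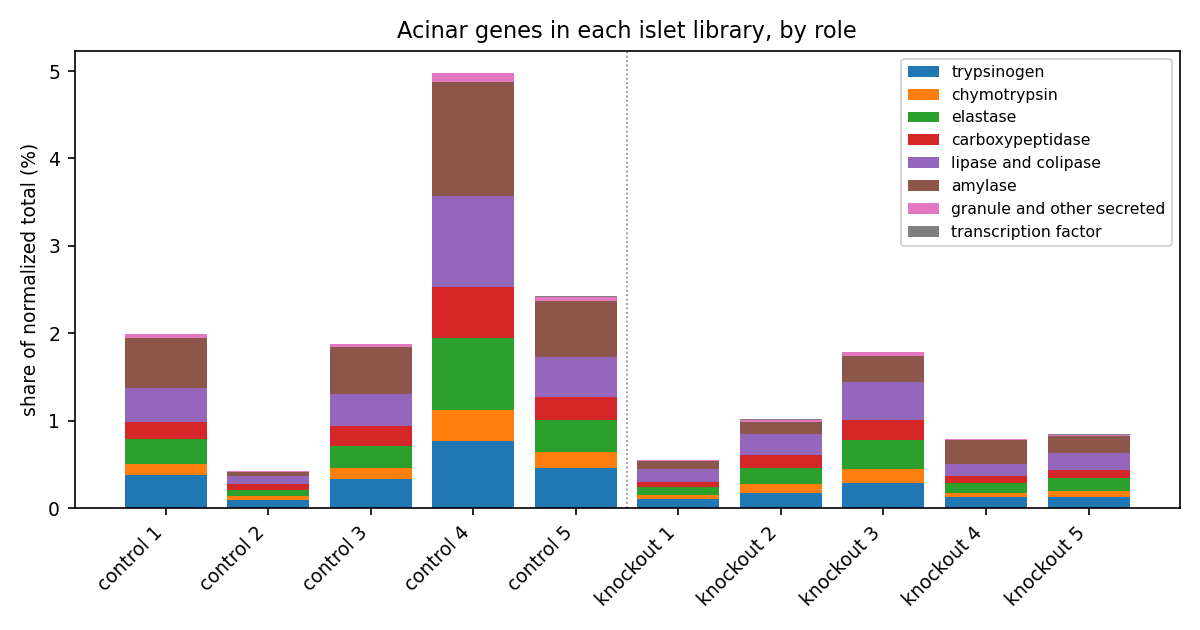
Share of each library's normalized total (vertical axis, %) taken by the 30 acinar genes, stacked by role, for the 5 control and 5 knockout libraries. Control 4 stands at 4.98% and control 2 at 0.428%, with the knockouts between 0.551% and 1.79%.

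The trypsinogens lie in a cluster on chromosome 6, and Prss2 there (41521787 to 41525079, plus strand, GENCODE M21 on GRCm38) had the highest mean. By library it stood at 10662, 2346, 7762, 22493 and 11391 across controls 1 to 5, against 4061, 4608, 8357, 3531 and 4217 across knockouts 1 to 5. All knockouts lay below the control median but above control 2. Its log2 fold change, knockout minus control on the log2(value + 8) scale, was -0.88 ± 0.56 (SE; limma, adjusted p = 0.942). Try5 was 7789, 1702, 5597, 10153 and 6836 in the controls and 1221, 2578, 3372, 2098 and 1217 in the knockouts. Knockouts 1 and 5 were below every control, and the other knockouts were above control 2 alone. The Try5 log2 fold change was -1.51 ± 0.51 (SE; limma, unadjusted p = 0.0157 and adjusted p = 0.942; exact 2-sided permutation p = 0.0317, n = 5 each). Try4 and Prss3 were at -1.23 and -1.74, Prss3 with 0 in knockouts 1 and 4, and Prss1 was at most 28.5 in any library. Trypsinogen genes are near copies of one another, so the split of reads between them is uncertain.

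Of the chymotrypsins, which cut proteins after aromatic residues, Ctrb1 (chromosome 8, 111686519 to 111691010) was the highest. It was 5496, 1936, 5602, 15591 and 8532 across controls 1 to 5, against 1672, 3783, 6422, 2110 and 3297 across knockouts 1 to 5, a log2 difference of -0.96 ± 0.58 (SE; limma, adjusted p = 0.942). Knockout 3 lay among the controls and knockout 1 below them all. Ctrl was at -0.75 ± 0.63.

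Ctrc, which encodes the chymotrypsin that degrades and tunes trypsinogen, was the gene farthest from the median of the group and the only one of the 26 with a higher mean in knockouts. It was 64.5, 1.25, 1.42, 66.0 and 15.1 in the controls and 51.2, 5.51, 12.6, 102 and 43.7 in the knockouts, with no order between the groups. Its log2 fold change was 0.62 ± 0.82 (SE; limma, adjusted p = 0.969), and -0.90 among the 7 libraries whose low values are spaced alike. In GENCODE M21, 21.4% of its exon bases also belong to Cela2a on the same strand, so its level is uncertain.

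The elastases, which cut after small residues, were led by Cela1 (chromosome 15, 100674421 to 100687921). It was 9306, 1743, 5837, 25075 and 10246 across controls 1 to 5, against 3110, 4474, 7800, 2407 and 3731 across knockouts 1 to 5. Again control 2 was lowest and control 4 highest, and the log2 fold change was -0.93 ± 0.68 (SE; limma, adjusted p = 0.955). Cela2a and Cela3b were at -0.69 and -1.09, and Cela3a did not exceed 5.75 in any library.

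Carboxypeptidases trim residues from the C-terminal end, and Cpa1 (chromosome 6, 30639218 to 30645363) had the higher mean. It was 7524, 2232, 7877, 24443 and 9822 across controls 1 to 5, against 2846, 5339, 8804, 3020 and 3788 across knockouts 1 to 5, a log2 difference of -0.87 ± 0.62 (SE; limma, adjusted p = 0.948). Knockout 3 was above controls 1, 2 and 3, and the groups overlapped. Cpb1, the carboxypeptidase for basic residues, was at -1.12 ± 0.50 (SE; limma, adjusted p = 0.942), with all knockouts below controls 1, 3, 4 and 5.

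Fat digestion is carried by pancreatic lipase (Pnlip), its relatives Pnliprp1 and Pnliprp2, the bile salt-activated lipase Cel and colipase (Clps), which anchors lipase to fat droplets. Pnlip (chromosome 19, 58652498 to 58681788) was 12137, 2574, 9280, 32542 and 13662 across controls 1 to 5, against 5541, 6248, 11103, 3583 and 5896 across knockouts 1 to 5, a log2 difference of -0.80 ± 0.64 (SE; limma, adjusted p = 0.955). Every knockout lay below the control median, and every knockout lay above control 2. All 5 genes had lower means in knockouts, from -1.11 for Pnliprp2 to -0.69 for Clps, and none passed.

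Amylases split starch, and their genes lie in a cluster on chromosome 3. Amy2a5 (113247178 to 113258837, minus strand) was 24654, 469, 19665, 55623 and 28541 across controls 1 to 5, against 2013, 2761, 9744, 12438 and 7761 across knockouts 1 to 5. Control 2 was 118.7-fold below control 4, where the other 19 genes with a mean over 500 spanned 8.35-fold to 22.2-fold between their lowest and highest libraries. Its log2 fold change was -1.22 ± 1.31 (SE; limma, adjusted p = 0.964). Amy2a1 was at -1.05, with knockouts between 4260 and 6590, and Amy2b, annotated as an unprocessed pseudogene, at -1.20. Amy1, the amylase of salivary gland and liver, was at -0.20, and the sign turned without control 4 (0.17) and without knockout 1 (0.21). In GENCODE M21, 32.7% of its exon bases also belong to Rnpc3 on the same strand, so its level is uncertain too.

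The pancreatic amylase genes did not keep a fixed proportion. Amy2a2, Amy2a3 and Amy2a4 held the same value in every library, so the table does not tell these copies apart. Amy2a5 divided by Amy2a2 was 1.43, 0.115, 1.12, 1.15 and 1.53 across controls 1 to 5, against 0.220, 0.287, 0.566, 2.90 and 0.914 across knockouts 1 to 5. The ratio thus spanned 25.2-fold, lowest in control 2 and highest in knockout 4, with both groups on either side of 1. For comparison, Cpa1 divided by Ctrb1 stayed between 1.15 and 1.70 while each gene alone spanned 10.9-fold and 9.33-fold. Reads of near-identical amylase copies may be assigned unevenly, and this was not tested.

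**Figure D2:**
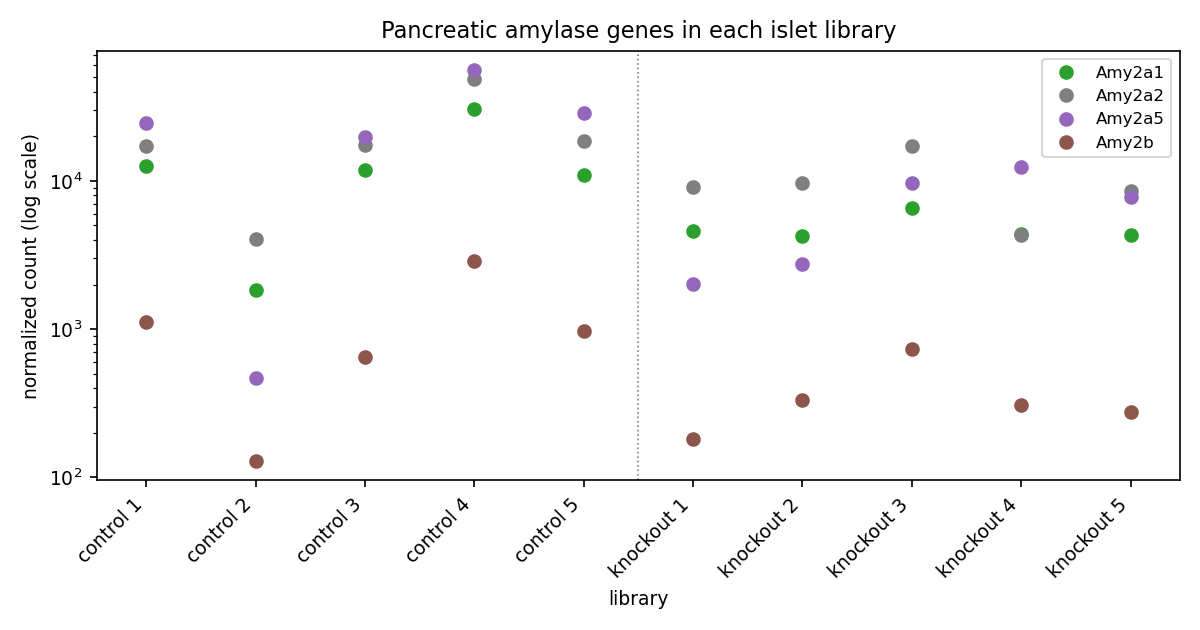
Normalized counts (log scale) of Amy2a1, Amy2a2, Amy2a5 and Amy2b in each of the 10 libraries, 1 point per gene and library. Amy2a5 falls below Amy2a1 and Amy2a2 in control 2 and knockouts 1 and 2, and stands above both in controls 1, 3, 4 and 5 and in knockout 4.

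Among other secreted proteins, syncollin (Sycn), a zymogen granule membrane protein, was 1239, 211, 631, 3008 and 1249 across controls 1 to 5, against 469, 464, 961, 235 and 804 across knockouts 1 to 5, a log2 difference of -0.79 ± 0.64 (SE; limma, adjusted p = 0.955). Klk1, a tissue kallikrein, was at -1.26 ± 0.66. Gp2, the main glycoprotein of the granule membrane, was listed at 0 in control 2 and knockout 1 and reached 1414 in control 4. Its log2 fold change of -0.69 ± 1.62 turned to 0.33 without knockout 1 and to 0.11 with library quality weights. Zg16, which encodes a granule lectin, was listed at 0 in 8 libraries, and at 104 in control 2 and 146 in knockout 4. Spink3, an older symbol of the trypsin inhibitor Spink1 in RefSeq, was 10.9 to 76.3 in controls and 0 to 31.9 in knockouts.

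Per kilobase of exon in GENCODE M21, the highest mean levels over the 10 libraries were those of Amy2a1 (10320 normalized counts per kb), Prss2 (9746), Try4 (7628), Ctrb1 (6201) and Clps (5320). Bhlha15 stood at 75.6 and Rbpjl at 3.97 on the same scale. Reads shared between copies and the length of the gene models limit these levels.

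Across the enzymes and the other tested genes, 25 of 26 had a lower mean in knockouts, where 52.4% of all 11711 tested genes did. The median log2 fold change was -0.94, against -0.03 over all tested genes. None of the 26 passed an adjusted p of 0.05 by limma, and 0% of all tested genes did. At an unadjusted p under 0.05, 1 member (Try5) was lower and 0 were higher, where 2.66% of all genes were lower. All 5 knockouts lay below the control median for 15 of 26 genes and for 8.49% of all tested genes. For 0 of the 26 did every knockout lie below every control, as for 0.427% of all genes. The authors' deposited table gives p-values under 0.05 to 21 of 29 members, all with lower values, where it gives them to 2.38% of its 16689 genes in that direction. It gives an adjusted p under 0.05 to 0 of 27 members, and the share of all its genes at that threshold is not given here. The smallest adjusted p of a member in the authors' deposited table is 0.0552, for Try5 at -1.61.

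These counts differed without control 2. Then 22 of the 26 had an unadjusted p under 0.05 by limma and were lower, where 2.81% of all genes were, and the median log2 fold change was -1.47. The 4 others were Ctrc, Amy1, Gp2 and Bhlha15. The members varied together (median r over their pairs 0.88), so counts of members, here and above, are not counts of separate results. Try5 was then at -1.93 ± 0.29 (SE; limma, adjusted p = 0.153), Amy2a1 at -1.65 and Prss2 at -1.35, and 0 of the 26 passed the adjusted threshold, as did 0% of all genes. In 7 of the 26, namely Try4, Try5, Cela3b, Cpb1, Pnliprp1, Amy2a1 and Amy2a5, every knockout was below controls 1, 3, 4 and 5, which held for 1.02% of all tested genes. Without controls 2 and 5, 21 were lower at an unadjusted p under 0.05 by limma (2.37% of all genes), with a median of -1.52, and 0 passed the adjusted threshold, which 0.00854% of all genes did. Without control 4, 1 was, where 2.15% of all genes were, with a median of -0.58, and without knockout 3 there were 5, where 3.23% of all genes were lower. Among the 7 libraries spaced alike, which leave controls 1 and 4, 21 were lower (1.94% of all genes), and 1, Amy2a1, passed the adjusted threshold, as did 0.0342% of all genes. Amy2a1 was at -2.04 there (adjusted p = 0.0360 by limma, from a range up to 0.989 over its alternatives). Control 2 also differed in its Esr1 level and in the spacing of its low values, and their part in the result was not tested.

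**Figure D3:**
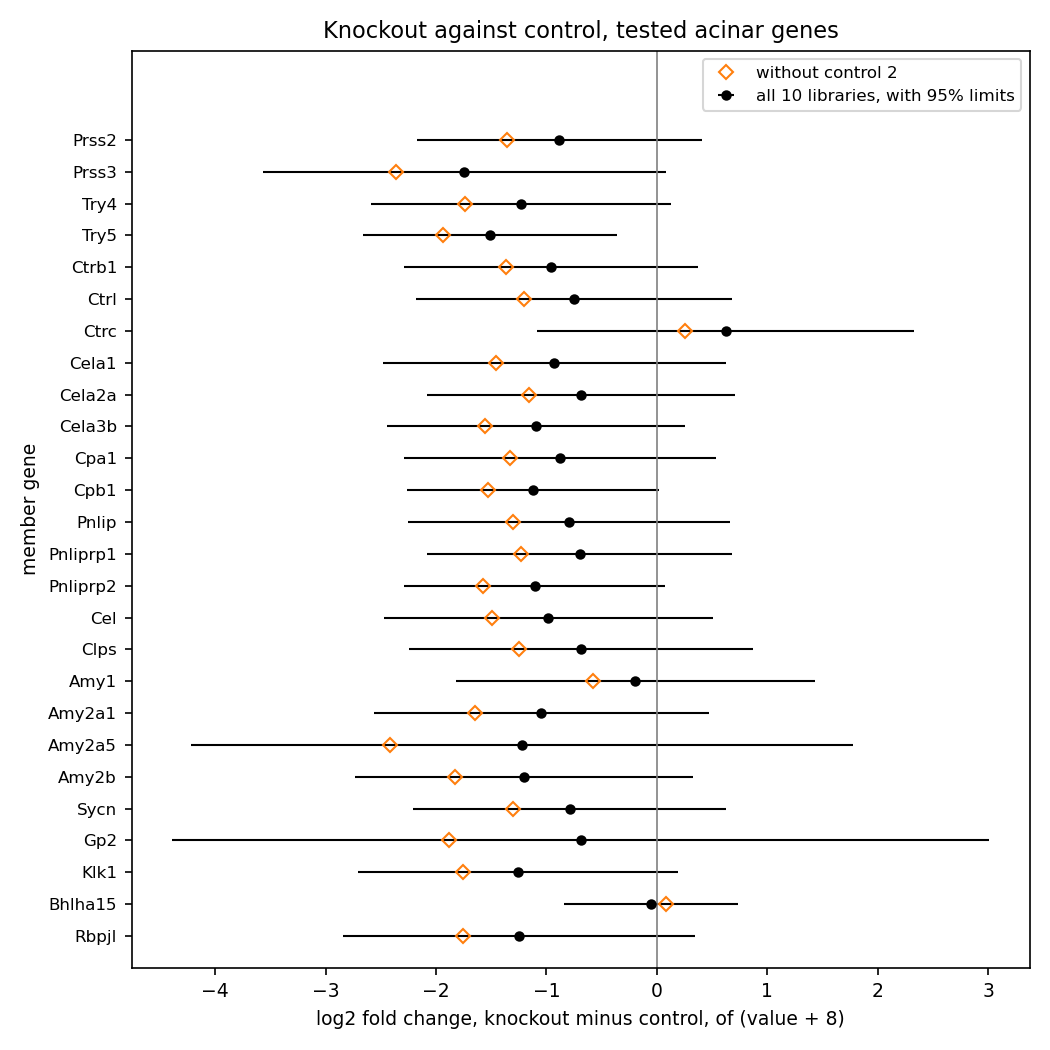
Log2 fold change, knockout minus control on the log2(value + 8) scale, of the 26 tested genes: filled points with 95% limits from limma over all 10 libraries, and open diamonds without control 2. Over all libraries only the limits of Try5 lie wholly below 0, and without control 2 the points of 24 genes lie below 0.

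With all libraries, the controls varied more than the knockouts. For 25 of 26 genes the SD of the log2 values was greater among the controls, where this held for 38.5% of all tested genes. The median SD of the 26 was 1.30 in controls and 0.71 in knockouts, against 0.69 and 0.83 over all tested genes. Amy2a1 showed this most plainly, with an SD of 1.48 among controls and 0.27 among knockouts. The exception was Amy1, at 1.19 and 1.29. Without control 2 the count was 17 of 26, where 37.4% of all genes had the greater SD in controls, and the median SD in controls was 0.79. Amy2a1 was then at 0.69 among controls, and the order turned for Prss3, Try5, Ctrb1, Cel, Amy2a5, Gp2, Klk1 and Rbpjl. Without controls 2 and 5 the count was 19 (33.1% of all genes), with a median of 0.96. Without knockout 3 the median SD in knockouts was 0.41.

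The genes varied together across the 10 libraries. The median Pearson r over the 325 pairs of tested members was 0.88, against 0.01 over all pairs of tested genes. With the mean log2 value of the other 25, 17 of the 26 had an r of at least 0.9, led by Amy2b at 0.992, Cela2a and Cel at 0.986 and Clps and Prss2 at 0.985. Amy2b kept 0.992 when each group was centred on its own mean. The lowest were Amy1 at 0.67, Ctrc at 0.18 and Bhlha15 at -0.23. Without controls 2 and 5 the median over pairs was 0.87, and Amy1, Ctrc and Bhlha15 were at 0.58, -0.04 and -0.30. These are descriptions over 10 libraries that share their scaling, with no p-value, since the genes were grouped as acinar in advance.

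**Figure D4:**
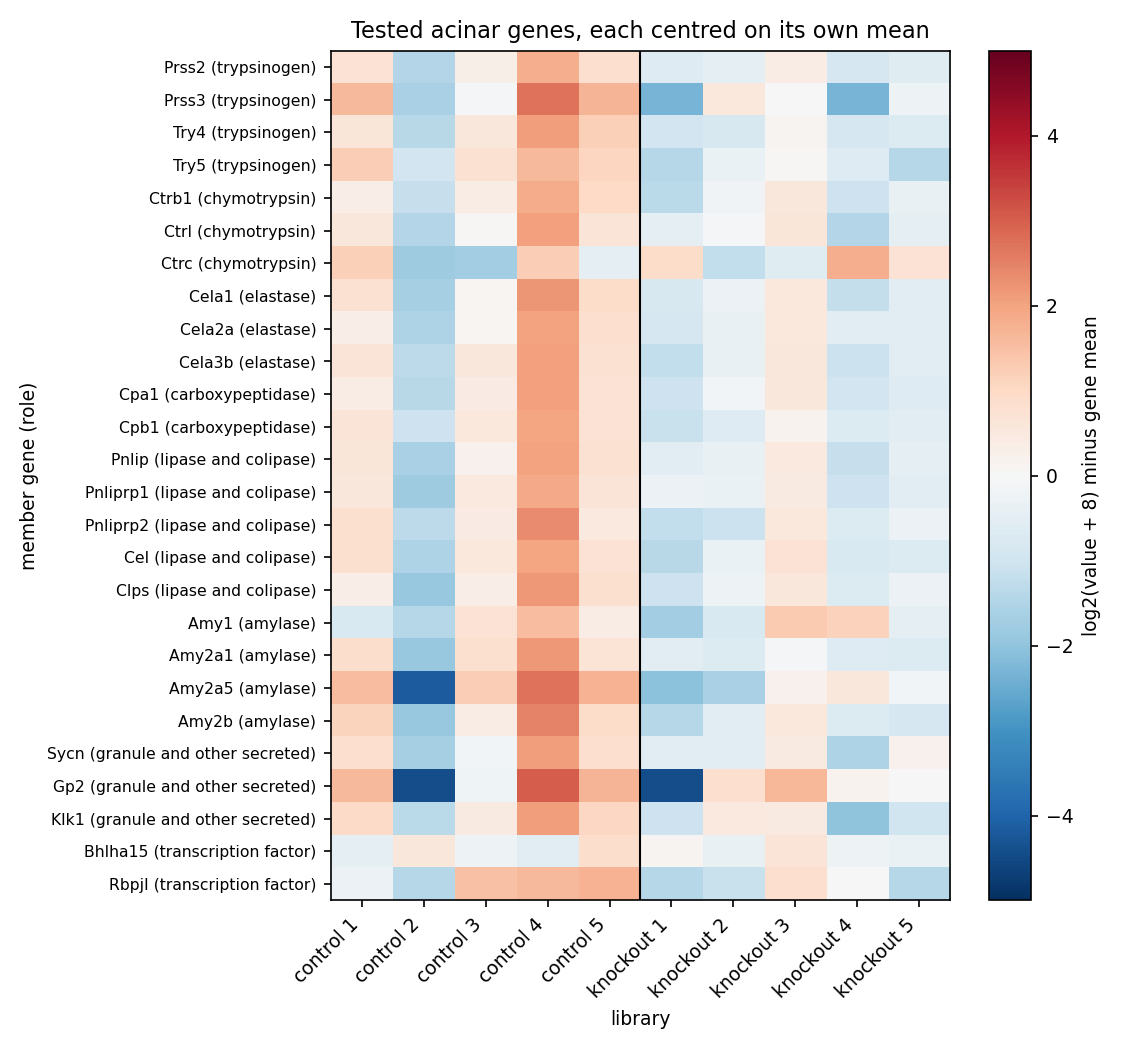
Log2(value + 8) of each tested gene (rows, with role) in each library (columns), minus the gene's own mean over the 10 libraries; red is above and blue below the mean. Control 4 is red and control 2 blue for nearly every enzyme, while the row of Bhlha15 has the opposite colours there. Ctrc shares those colours but is highest in knockout 4 and nearly as low in control 3 as in control 2.

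The transcription factors did not behave alike. Ptf1a, the defining factor of the PTF1 complex, was listed at 0 in 8 libraries and at 12.9 and 5.51 in controls 3 and 4, and 40.4% of its exon bases are shared with an antisense gene. Rbpjl (chromosome 2, 164403141 to 164415448), the acinar-specific partner in PTF1, was 9.40, 0, 51.4, 57.3 and 64.1 across controls 1 to 5, against 0, 1.83, 30.3, 13.3 and 0 across knockouts 1 to 5. Its highest libraries were controls 3, 4 and 5, and it was listed at 0 in control 2 and knockouts 1 and 5. The log2 fold change was -1.25 ± 0.76 (SE; limma, adjusted p = 0.942).

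Bhlha15 (chromosome 5, 144190286 to 144194441) was 174, 371, 208, 164 and 460 across controls 1 to 5, against 277, 190, 396, 207 and 195 across knockouts 1 to 5. It was lowest in control 4, the library richest in enzymes, and only control 5 and knockout 3 exceeded control 2, the poorest. The whole span was 2.81-fold, against 10.9-fold for Cpa1. The log2 fold change was -0.05 ± 0.38 (SE; limma, adjusted p = 0.996; 95% limits -0.84 to 0.74), and its sign turned in 8 alternatives, for example to 0.08 without control 2 and 0.41 without controls 2 and 5.

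Whether enzymes and transcription factors move together was tested on 10 pairs, Rbpjl and Bhlha15 each with Ctrb1, Cpa1, Pnlip, Cela2a and Amy2a5. All 5 pairs of Rbpjl correlated, with Pearson r from 0.73 to 0.82 (permutation test, 2-sided, adjusted p from 0.0134 to 0.0276 over the 10 pairs). The 5 enzymes varied together, with r from 0.88 (Amy2a5) to 0.99 (Cela2a) with the mean of the other members. The 5 pairs are therefore not independent. Rbpjl and the enzymes were also grouped as acinar in advance, and the acinar share of a library ran from 0.428% to 4.98%. Whether they correlate beyond that shared variation was not tested. With Cpa1, Rbpjl had r = 0.81 (permutation p = 0.00466) and Spearman's rho = 0.88 (permutation p = 0.00192, adjusted p = 0.0052). With Pnlip, the weakest, r was 0.73 (permutation p = 0.0138) and rho 0.77 (permutation p = 0.0134, adjusted p = 0.0268). Without the 2 libraries farthest from the enzyme's median, r ran from 0.61 to 0.81 and 0 of the 5 passed (exact permutation, adjusted p from 0.108 to 0.215). The calls thus rest on having those libraries among the 10, while r with Cela2a was 0.82 with them and 0.81 without. Without controls 2 and 5, r ran from 0.66 to 0.79 and 0 of the 5 passed (exact permutation, adjusted p from 0.0711 to 0.126). Among the 7 libraries spaced alike, r ran from 0.74 to 0.89 (exact permutation, adjusted p from 0.0794 to 0.106). With each group centred on its own mean, r was 0.67 to 0.79 (exact permutation within groups, adjusted p from 0.0573 to 0.118). The other 3 libraries, all controls, are too few for a correlation. Without control 4, r ran from 0.67 to 0.81 and 0 pairs passed (exact permutation, adjusted p from 0.0501).

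Of the 5 pairs of Bhlha15, 0 passed, with r from -0.32 with Amy2a5 to -0.10 with Ctrb1 (permutation test, adjusted p from 0.622 to 0.772). With Cpa1 it had r = -0.18 and rho = -0.10 (permutation p = 0.623 and 0.785, adjusted p = 0.697 and 0.811). Without the 2 libraries farthest from the enzyme's median r lay between 0.02 and 0.57 (exact permutation, adjusted p from 0.257), so its sign rested on those libraries. Without controls 2 and 5 it ran from -0.42 to -0.21 (exact permutation, adjusted p from 0.509 to 0.580). Cpa1 divided by Bhlha15 ranged from 6.01 in control 2 to 149 in control 4. That the correlation of Rbpjl differs from that of Bhlha15 was not tested.

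**Figure D5:**
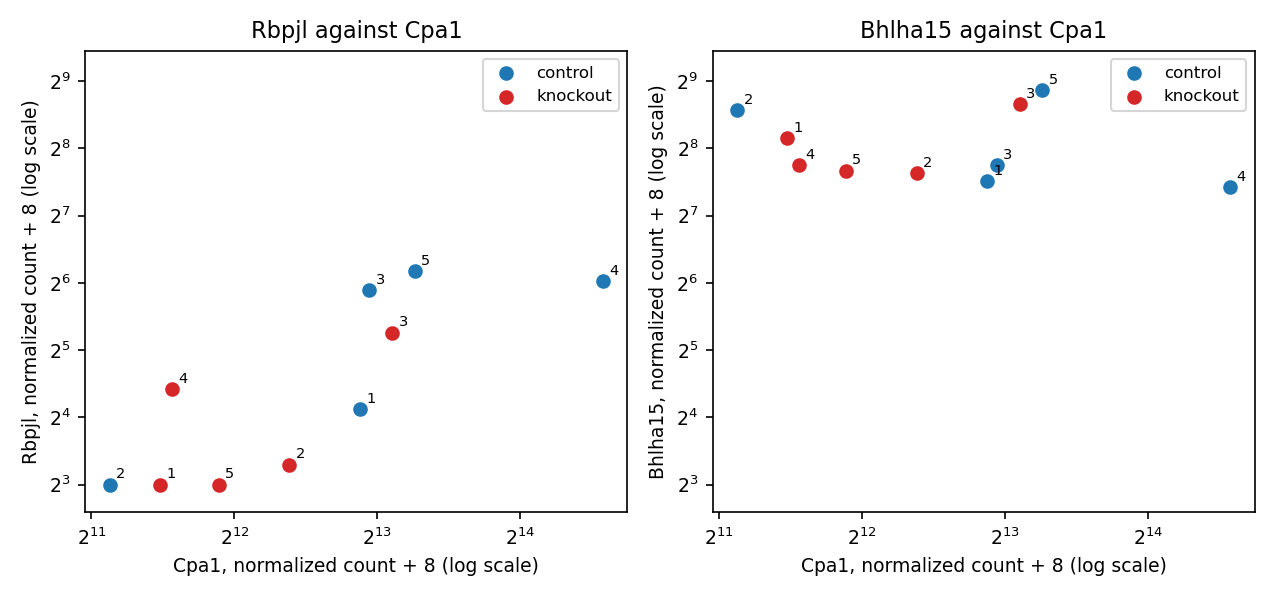
Rbpjl (left) and Bhlha15 (right) against Cpa1 in the 10 libraries, all as normalized count + 8 on log scales, with the replicate number beside each point. Rbpjl is at its floor in control 2 and knockouts 1 and 5 and high in controls 3, 4 and 5 (r = 0.81), while Bhlha15 shows no trend with Cpa1 (r = -0.18).

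A further list of 22 genes made in acinar cells was examined, of which 21 were in the table and 17 were tested. Of these, 13 had lower and 4 higher means in knockouts, where 52.4% of all tested genes had lower means. The median log2 fold change of the 17 was -0.80, and none passed the adjusted threshold (0% of all genes by limma). The 17 did not all follow the mean of the 26 genes. Their r with that mean ran from -0.22 for Dnase1 to 0.98 for 2210010C04Rik, with Chrm3 at 0.03. At an unadjusted p under 0.05 by limma, Gm5771 was lower at -1.72 and Gatm, which encodes an enzyme of creatine synthesis, higher at 1.34. At that threshold 2.66% of all tested genes were lower, and 587 of 11711 passed in either direction. Rnase1, pancreatic ribonuclease, was 1139 to 16249 in controls and 1362 to 5135 in knockouts. Pla2g1b, pancreatic phospholipase A2, was 15.1 to 647 and 10.8 to 265. Rab3d, a granule GTPase, was 526 to 1497 and 873 to 1425, and its r with the mean of the 26 genes was -0.01. Nr5a2, a nuclear receptor of acinar cells, ran from 0 to 50.02 over the libraries.

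Of 11685 other tested genes, the 10 that followed the mean of the 26 most closely over the 10 libraries had r from 0.910 to 0.980. Among them were 2210010C04Rik, Rnase1, Serpini2, Tff2, Amy2a2, Amy2a3, Amy2a4, Sacm1l and Casp9. Casp9, which encodes an initiator caspase of apoptosis, was 1297, 404, 1209, 4424 and 1713 across controls 1 to 5, against 1106, 799, 1666, 526 and 731 across knockouts 1 to 5. Like the enzymes it was highest in control 4 and lowest in control 2. In GENCODE M21 its exons share 94 bases with those of Cela2a and Ctrc on the opposite strand. The counting is not stated to use strand, so reads of these genes cannot be told apart with certainty.

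Markers of the other cells of the preparation were followed as summed levels. In controls 2 and 4, which bracket the acinar genes, the 9 ductal markers in the table summed to 9021 and 8718, the endothelial ones to 2709 and 2336, and the immune ones to 94.9 and 65.3. Over all libraries the ductal sum was 8106 to 9425 in controls and 6291 to 8233 in knockouts. Most of that sum is keratins 8 and 18, which islet cells also make. The ductal keratin Krt19 was listed at 0 in 5 or more libraries and did not exceed 21.4, and Epcam was listed at 0 in 8 libraries. The 6 endothelial markers summed to 2109 to 2709 in controls and 2627 to 3264 in knockouts, the 7 stellate and mesenchymal markers to 667 to 1058 and 569 to 861, and the 4 immune markers in the table to 60.2 to 94.9 and 63.8 to 618, the highest from Ptprc at 585 in 1 knockout library. The 3 Schwann cell markers summed to 44.5 to 113.5 and 25.1 to 151. Of the endothelial genes, 6 of 6 had higher means in knockouts, where 52.4% of all tested genes had lower means. The endothelial median log2 fold change was 0.23. Of the β-cell genes, 8 of 8 had lower means, with a median of -0.22, where 52.4% of all tested genes were lower. The 5 alpha cell genes had a median of -0.12 and the 3 delta and PP cell genes one of -0.27. None of these passed the adjusted threshold by limma.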

How the data were processed

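The authors deposited 1 table of normalized counts per gene, a signal on a scale common to the libraries, with their own log2 fold changes, a test score, p-values and adjusted p-values per gene. Per the submitters' processing notes STAR 2.4.0.1, HTSeq and DESeq2 were used, with no role stated, and the genome build and annotation are not given in the sources used here. Libraries were made with a stranded kit after removal of ribosomal RNA, per the labels' protocols. Of the deposited values above 0, 25.0% to 37.2% per library were whole multiples (within 0.01) of its commonest value below 30, so whole reads were not recovered. Values midway between multiples made up 10.2% to 11.9% in controls 2, 3 and 5 and 1.20% to 1.44% elsewhere.

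Of 17946 rows, 1 without a name was left out (0.00774% to 0.0251% of a library). Genes with a value of at least 10 in at least 5 libraries were compared on log2(value + 8), which understates the change of low genes, with limma 3.58.1 in R 4.3.3 (trended, robust, Benjamini-Hochberg over 11711 genes). The steps were tested on simulated data. Correlations and exact tests used Python 3.11.15 with scipy 1.17.1, with 100000 resamples at 10 libraries and exact enumeration below. Gene positions are from GENCODE M21 (GRCm38), promoters from RefSeq (GRCm38.p6).

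The genes and lists were chosen with earlier results of these data known. Values are printed for all 3 transcription factors, the gene of highest mean in each role, the gene farthest from the median fold change and the 10 genes that best follow the members, of which 1 is not reported here; Try5, Cpb1, Casp9 and the amylase copies were singled out after their values were seen, and Spink3 by its symbol. Alternatives were other scalings, filters, pseudocounts, variance estimates, quality weights and the omission of libraries.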

Additional observations from a re-analysis of the deposited data

Results flagged for a closer look

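Of 59 sets of 5 libraries (1 gene in 1 group, on the log2(value + 8) scale), 6 held a library far from the rest. There the gap to the nearest neighbour was more than 0.71 of the group's range. That limit flags about 1 in 20 sets of independent, normally distributed values. These sets were not independent, since the genes varied together, so their count is not compared with chance. In both groups Zg16 was at 0 in 4 of 5 libraries, which fixes its flag. Try4 was 5089 in knockout 3, against 2375 to 2869 in the other knockouts, and Amy2a1 was 6590 there, against 4260 to 4604. Amy2a5 was 469 in control 2, against 19665 to 55623 in the other controls. Gp2 was listed at 0 in knockout 1, against 164 to 545 in the other knockouts. Zg16 was 104 in control 2 and 146 in knockout 4 and listed at 0 in every other library. No explanation was tested.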

How the results depend on the processing

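No paired analysis was possible because the labels do not pair control libraries with knockout libraries. Of 26 tested genes, 22 kept the sign of their log2 fold change in every alternative run. The other 4 turned as follows. Ctrc turned to -0.90 among the 7 libraries spaced alike, an alternative chosen after seeing the data. Amy1 and Gp2 turned with single libraries left out, where Amy1 ran from -0.58 to 0.21 and Gp2 from -1.88 to 0.33. With quality weights Gp2 was 0.11 and Bhlha15 0.11. Bhlha15 was 0.41 without controls 2 and 5 and 0.51 among the 7 libraries, and ran from -0.23 to 0.16 with single libraries left out. Of 542 alternative fits of single genes, 1 passed the adjusted threshold by limma, Amy2a1 among the 7 libraries.

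The median log2 fold change of the 26 was -0.94, and ran from -1.86 (among the 7 libraries) to -0.58 (without control 4) over the alternatives. Over all genes 0 passed by limma (587 at an unadjusted p under 0.05); 1 passed with plain variance estimates, 1 without controls 2 and 5 and 4 among the 7 libraries, with 0 to 1 when single libraries were left out. Members lower at an unadjusted p under 0.05 by limma numbered 1, where 2.66% of all genes were lower. There were 2 with scaling to equal totals, with or without the members in the total, and 2 with pseudocounts of 1 and 32. A minimum of 50 and plain variances each gave 2, and no filter on low values gave 3. Shares over all genes for those settings are not given here. There were 21 without controls 2 and 5 (2.37% of all genes) and 21 among the 7 libraries (1.94%). With single libraries left out there were 1 to 22, the highest without control 2 (2.81% of all genes). Correlating enzyme and transcription factor pairs numbered 5, and 0 without the 2 farthest libraries, among the 7 libraries, with groups centred, or without controls 2 and 5 (added after seeing the data), and 0 to 5 with single libraries left out, with 0 without control 4. The 5 correlating pairs share Rbpjl and have enzymes that varied together, so they are not independent. Each omission also leaves fewer libraries to test, and the causes were not tested further. Read depth is unknown, so values near 0 (Ptf1a, Rbpjl, Ctrc, Zg16) carry no counting interval.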
